A study of Mus musculus with 13 samples.

Results

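The interferon-inducible GTPases described here are 10 genes, the guanylate-binding proteins *Gbp2*, *Gbp3*, *Gbp4*, *Gbp5*, *Gbp6* and *Gbp7* (GBP) and the immunity-related GTPases *Irgm1*, *Irgm2*, *Igtp* and *Iigp1* (IRG). They were chosen by name as a readout of interferon-γ, with earlier results of these data known. They are 10 of the 34419 genes in the count table. All 10 passed the filter on low counts that 17779 genes passed. Gluteal WAT, a posterior subcutaneous fat depot, was taken from 7 mice kept at 22°C and 6 kept at 29°C, and its RNA was sequenced with 1 library per mouse. All mice were C57BL/6J males kept from birth until 13 weeks of age at their temperature, 22°C being room temperature and 29°C thermoneutrality. All of them had lost their posterior hair to a depilatory cream after weaning and lived singly with minimal bedding and no nest material. The question was how gene expression in this fat depot differed between the cooler and the warmer housing.

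GBPs and IRGs are cytosolic GTPases that are made in large amounts when a cell is exposed to interferon. Interferon-γ, released mainly by T cells and natural killer cells, binds the receptor chains IFNGR1 and IFNGR2, activates the kinases JAK1 and JAK2 and leads to induction of the transcription factor IRF1. The GTPases coat vacuoles and bacteria inside the cell, break up the membranes around them and promote inflammasome activity. Type I interferons act through other receptors and induce many of the same genes. White fat holds macrophages, lymphocytes and vessels beside adipocytes, so in this bulk tissue a lower level can mean fewer cells that make an RNA or less of it per cell, and these cannot be told apart.

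Both interferon routes end on short promoter elements, and the stretches that hold them in the members' promoters are printed here. The gamma-activated site (GAS), an element of the interferon-γ response, was searched as TTCNNNGAA, which reads the same on both strands, and the interferon-stimulated response element (ISRE), bound by IRF factors, as GAAANNGAAA on both strands. Matches of the 2 motifs could overlap. RefSeq promoter windows, from 250 bases before to 50 bases after a gene's start, were at hand for 7 of the 10 members, and none was at hand for *Gbp4*, *Gbp6* and *Iigp1*. All 7 held an ISRE match and 4 (*Gbp5*, *Gbp7*, *Igtp* and *Irgm2*) also held a GAS match. Among all 32851 windows in that table, 3.44% held an ISRE match, 8.30% a GAS match and 11.3% either. *Gbp3* has 2 windows there, and only the one shown held a match. The 120 bases before the start are shown 5′ to 3′ along the gene, with motif matches in capitals. Coordinates are of build GRCm38.p6, which is not the build of the counts.
Gbp2, chr3:142620543-142620662 (+ strand), and Gbp3, chr3:142559924-142560043 (+ strand), carry ISRE matches alone.
Gbp2: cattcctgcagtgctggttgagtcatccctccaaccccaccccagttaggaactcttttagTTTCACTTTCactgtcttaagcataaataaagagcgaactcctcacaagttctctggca
Gbp3: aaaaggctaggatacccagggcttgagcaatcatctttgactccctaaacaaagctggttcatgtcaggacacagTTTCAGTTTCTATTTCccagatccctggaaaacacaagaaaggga
Gbp5, chr3:142496814-142496933 (+ strand), and Gbp7, chr3:142530216-142530335 (+ strand), carry GAS matches, and Gbp7 also an ISRE match.
Gbp5: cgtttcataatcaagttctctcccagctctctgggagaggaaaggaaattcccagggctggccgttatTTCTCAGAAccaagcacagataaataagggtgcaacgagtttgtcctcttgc
Gbp7: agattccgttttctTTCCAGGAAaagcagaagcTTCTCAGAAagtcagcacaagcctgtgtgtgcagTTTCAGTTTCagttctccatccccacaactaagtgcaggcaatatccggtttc
Igtp, chr11:58199436-58199555 (+ strand), and Irgm2, chr11:58214857-58214976 (+ strand), carry a GAS match followed by an ISRE match.
Igtp: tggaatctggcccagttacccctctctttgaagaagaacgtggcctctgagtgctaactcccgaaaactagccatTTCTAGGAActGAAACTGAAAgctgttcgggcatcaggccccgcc
Irgm2: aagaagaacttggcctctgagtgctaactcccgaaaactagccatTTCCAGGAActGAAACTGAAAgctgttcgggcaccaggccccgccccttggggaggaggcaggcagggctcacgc
Irgm1, chr11:48871421-48871540 (- strand), carries 2 overlapping ISRE matches.
Irgm1: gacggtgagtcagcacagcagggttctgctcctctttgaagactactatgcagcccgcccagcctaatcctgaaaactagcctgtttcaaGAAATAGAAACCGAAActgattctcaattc

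The ISRE match of *Gbp5* and a further GAS match lie upstream of the stretch shown, 165 and 245 bases before the start. *Igtp* and *Irgm2*, which lie on the same chromosome, had similar promoters. Shifted by 30 bases, 184 of 270 overlapping bases of their windows were identical without gaps (68.1%), whereas no other pair among these promoters exceeded 35.3%.

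Library totals were between 22356637 and 25245785 counts. Replicates 1 to 5 at 22°C formed a lower group of totals, and replicates 6 and 7 at 22°C lay with all 6 libraries at 29°C, so lower totals and 22°C cannot be told apart in those 5 mice. Skeletal muscle transcripts were present in every library, and where they came from was not tested. Their summed level spanned 980 to 98343 normalized counts per 1e6 counts (CPM) among cool mice and 181 to 7921 CPM among warm mice, and it was highest in replicates 1 and 7 at 22°C. All 20 muscle genes had higher means at 22°C (median log2 fold change 3.03). None passed by edgeR, where a gene passes with an adjusted p below 0.1, but 13 had an unadjusted p below 0.05 and DESeq2 called 12 of them higher. The 10 adipocyte markers, among them *Adipoq* and *Plin1*, summed to between 30995 and 46975 CPM in the mice, none was at 0, and none passed by edgeR or DESeq2 (1, *Adipoq*, at an unadjusted p below 0.05). Results for the GTPases without the muscle-rich libraries are given below.

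Every member was lower at 22°C than at 29°C on average, but the differences were small and 1 gene passed the test. *Gbp3* fell at 22°C, with P-adj 0.0714 by edgeR's quasi-likelihood test with Benjamini-Hochberg adjustment over all tested genes. A gene is said to pass when this adjusted p is below 0.1. Among all genes tested, 1.21% passed and were lower at 22°C, and 48.4% had a lower mean. Over the 10 members the median log2 fold change was -0.29, and over all tested genes it was 0.0074. An unadjusted p below 0.05 with lower values at 22°C was reached by 4 of the 10 members, all GBPs (*Gbp2*, *Gbp3*, *Gbp5* and *Gbp7*), against 8.2% of all genes. The members were chosen with earlier results of these data known, and they tended to vary together between mice. Their counts are therefore no independent evidence of direction. No member had every mouse at 22°C below every mouse at 29°C, an arrangement found in 0.748% of genes. The summed level of the 10 genes was 296 ± 42.1 CPM (SD, n = 7) at 22°C, from 228 to 353, and 363 ± 44.5 CPM (SD, n = 6) at 29°C, from 313 to 435.

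**Figure D1:**
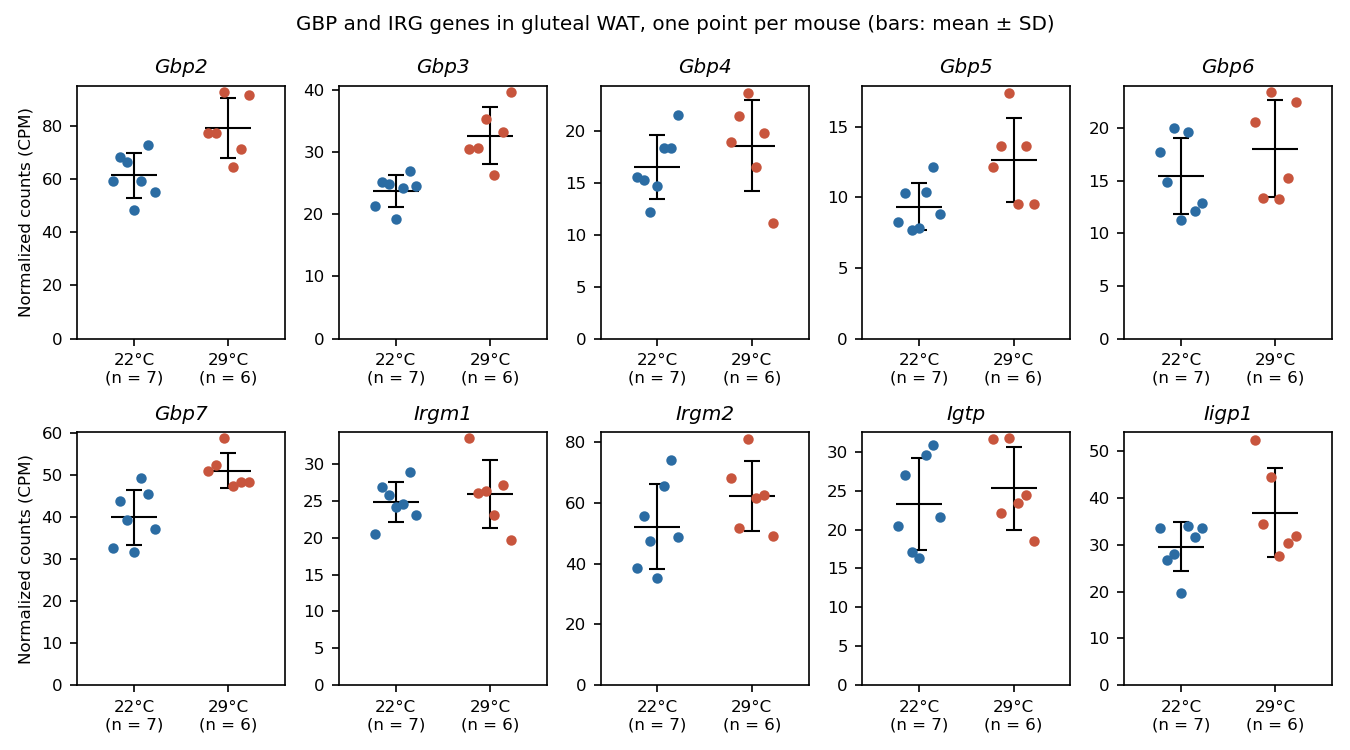
Normalized counts (CPM) of the 10 GBP and IRG genes in each mouse at 22°C (blue, n = 7) and 29°C (red, n = 6), with the mean and SD in black and axes from 0. *Gbp3* has 6 of 7 mice at 22°C below all mice at 29°C, and *Irgm1* and *Igtp* overlap over most of their range.

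The largest differences were in the 4 GBPs whose promoters lie on chromosome 3, *Gbp2*, *Gbp3*, *Gbp5* and *Gbp7*. *Gbp3*, which takes part in inflammasome activation by bacteria, had a lowest, median and highest level of 19.3, 24.6 and 27.0 CPM at 22°C and of 26.4, 31.9 and 39.6 CPM at 29°C. A single mouse at 22°C, replicate 6, reached into the range of the warm group, where replicate 4 was lowest. The mean was 23.8 ± 2.58 CPM (SD, n = 7) at 22°C against 32.6 ± 4.56 CPM (SD, n = 6) at 29°C, or 1.37-fold higher at 29°C. The log2 fold change was -0.45 ± 0.098 (SE), with P-adj 0.0714 by edgeR.

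*Gbp2* encodes a lipid-anchored GBP that moves to pathogen vacuoles. It spanned 48.3 to 72.7 CPM at 22°C, with a median of 59.5, and 64.5 to 92.9 CPM at 29°C, with a median of 77.5. All 7 cool mice lay below the warm median, and 4 of them lay below every warm mouse. The means were 61.4 ± 8.39 and 79.2 ± 11.2 CPM (SD, n = 7 and n = 6), a log2 fold change of -0.37 ± 0.11 (SE) that missed the threshold (P-adj 0.126, edgeR).

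*Gbp7*, whose product acts in macrophage defence against bacteria, showed a similar arrangement. Its lowest, median and highest levels were 31.6, 39.2 and 49.2 CPM at 22°C and 47.3, 49.6 and 58.7 CPM at 29°C. Of the 7 cool mice, 6 were below all warm mice, and only replicate 5 was not. The log2 fold change was -0.35 (SE 0.10), and the gene did not pass (P-adj 0.126, edgeR).

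*Gbp5*, a promoter of NLRP3 inflammasome assembly, had the lowest level per exon length of the members. It ranged from 7.66 to 12.2 CPM in cool mice (median 8.82) and between 9.52 and 17.4 CPM in warm mice (median 12.9). The groups overlapped, because warm replicates 1, 4 and 6 lay within the range of the cool mice. Its log2 fold change of -0.43 was close to that of *Gbp3*, but with a larger error (SE 0.16, P-adj 0.185, edgeR).

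The other 2 GBPs had smaller differences and wide overlap. *Gbp4* had levels of 12.1, 15.5 and 21.5 CPM (lowest, median, highest) at 22°C and 11.1, 19.3 and 23.7 CPM at 29°C, and its lowest value of all came from a warm mouse, replicate 6. *Gbp6* had 11.2, 14.9 and 19.98 CPM at 22°C and 13.3, 17.9 and 23.4 CPM at 29°C. In both genes the difference was about as large as its standard error (log2 fold change -0.17, SE 0.17, and -0.22, SE 0.18), with P-adj 0.633 and 0.558 by edgeR. The level of *Gbp6* is also uncertain for another reason. Of the 50-base words of its transcripts, 70.7% occur in other genes as well, mainly the gene model *Gm43302*. Among the other GBPs this share was 12.7% for *Gbp7*, mainly with the gene model *Gm43802*, and 7.78% for *Gbp4*. It was at most 3.75% for *Gbp2*, *Gbp3* and *Gbp5*. How the counting treated such reads is not given in the sources used here.

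None of the 4 IRG genes passed by edgeR or by DESeq2, and 0 had an unadjusted p below 0.05 by edgeR. *Iigp1*, an effector IRG that loads onto the vacuole of *Toxoplasma*, was the most different. It had 19.6, 31.6 and 34.1 CPM at 22°C and 27.5, 33.2 and 52.4 CPM at 29°C (lowest, median, highest). Warm replicates 1 and 3 stood above all other mice, and the remaining values overlapped. The log2 fold change was -0.32 ± 0.16 (SE), with P-adj 0.319 by edgeR.

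*Irgm1*, *Irgm2* and *Igtp* encode the regulatory IRGs, which sit on the cell's own membranes (*Igtp* at the endoplasmic reticulum and lipid droplets) and keep the effectors off them. *Irgm2* had levels of 35.2, 48.8 and 74.1 CPM at 22°C and 49.1, 62.0 and 80.9 CPM at 29°C, with a log2 fold change of -0.26 ± 0.17 (SE) and P-adj 0.449 by edgeR. *Igtp* had 16.3, 21.7 and 30.9 CPM at 22°C and 18.5, 23.9 and 31.7 CPM at 29°C, with a log2 fold change of -0.12 ± 0.18 (SE) and P-adj 0.757. *Irgm1* had 20.6, 24.6 and 28.9 CPM at 22°C and 19.7, 26.2 and 33.6 CPM at 29°C, with a log2 fold change of -0.06 ± 0.11 (SE) and P-adj 0.800. The 2 groups covered almost the same range in *Igtp*, and in *Irgm1* the range of the cool mice lay within that of the warm mice. Over the 6 GBPs the median log2 fold change was -0.36 and over the 4 IRGs -0.19, and this contrast between the subfamilies was not tested.

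**Figure D2:**
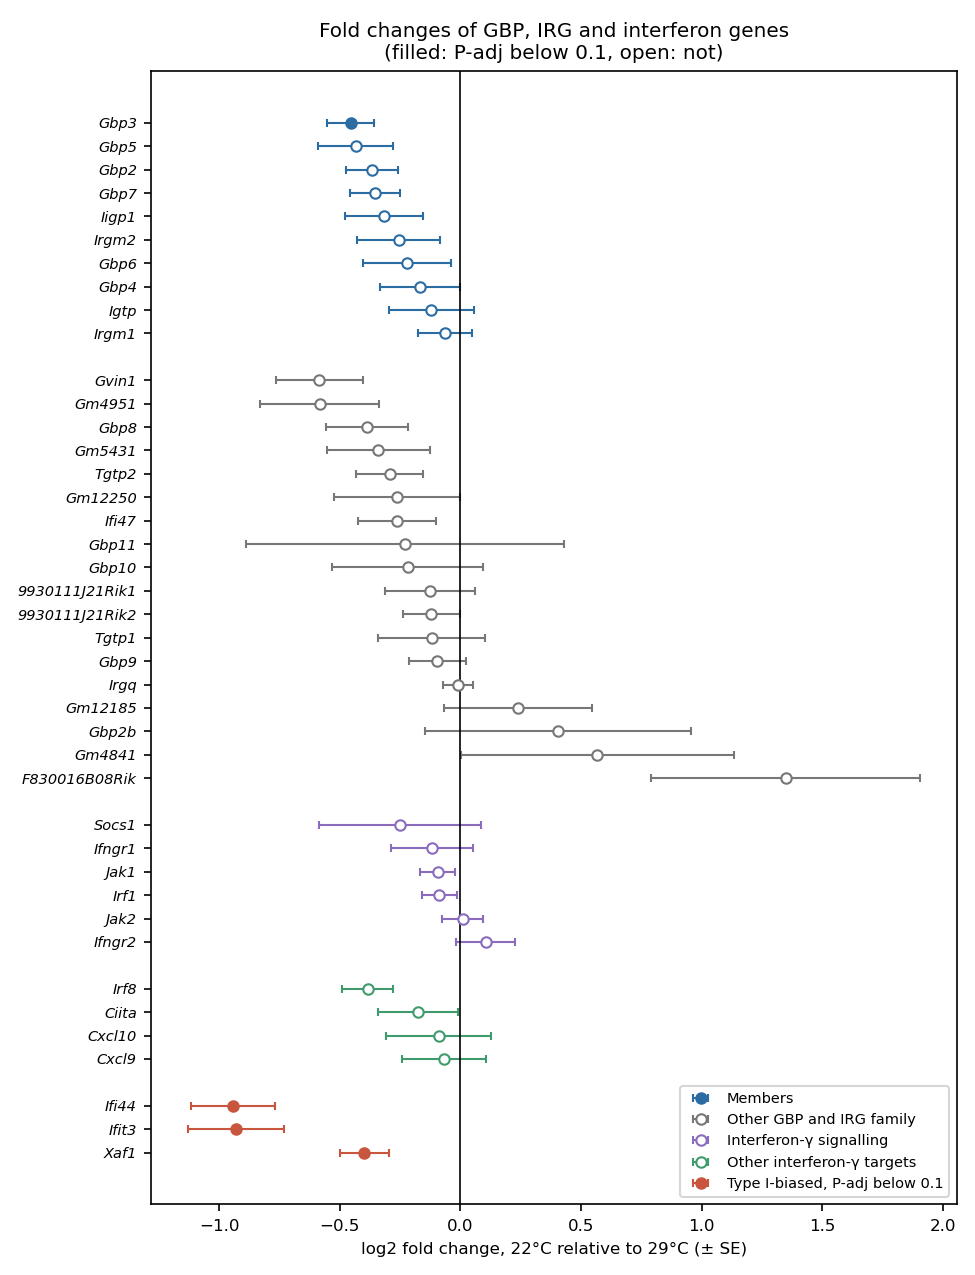
Log2 fold change (22°C relative to 29°C) with its standard error from edgeR for the members, their relatives, genes of interferon-γ signalling, other interferon-γ targets and the type I-biased genes that passed. Filled points have P-adj below 0.1. All 10 members lie left of 0, from -0.45 for *Gbp3* to -0.06 for *Irgm1*, and *Gbp3* is the filled one.

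The call of *Gbp3* was close to its limit. It was lost on leaving out any of 7 libraries, namely replicate 1 (P-adj 0.121) or 4 (0.1002) at 22°C and replicate 1 (0.102), 2 (0.134), 3 (0.164), 5 (0.108) or 6 (0.105) at 29°C by edgeR, while its log2 fold change stayed between -0.51 and -0.39 in all 13 such fits. Without replicate 6 at 22°C, *Gbp2* (P-adj 0.0847) and *Gbp7* (0.0969) passed as well, and *Gbp7* also without replicate 5 at 22°C (0.0974). DESeq2 called 4 members lower, *Gbp2* (P-adj 0.0374), *Gbp3* (0.0032), *Gbp5* (0.0851) and *Gbp7* (0.0341), against 4.65% of the genes to which it gave an adjusted p.

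Among the 8 libraries with higher totals, 2 at 22°C and 6 at 29°C, *Gbp3* had a log2 fold change of -0.34 (P-adj 0.361, edgeR) and *Gbp2*, *Gbp5* and *Gbp7* had -0.31, -0.27 and -0.30. There *Gbp4*, *Igtp* and *Irgm1* turned to 0.10, 0.05 and 0.0029. The lower totals hold mice of 1 temperature only and give no value. Without the 2 libraries richest in muscle transcripts, a setting chosen after the data were seen, *Gbp3* had -0.44 (P-adj 0.109, edgeR). *Gbp2*, *Gbp5* and *Gbp7* then had -0.33, -0.39 and -0.29, and *Irgm1* had 0.0028. With the muscle score as a covariate in all mice, *Gbp3* had -0.35 (P-adj 0.218, edgeR). In that fit *Gbp2*, *Gbp5* and *Gbp7* had -0.24, -0.40 and -0.25, with P-adj 0.408, 0.427 and 0.370.

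To compare levels between members, CPM were divided by exon length in kilobases, taken from GENCODE vM21, a release other than that of the counts. On this scale *Gbp2* was the most abundant, with 24.4 ± 3.34 CPM per kb at 22°C and 31.5 ± 4.46 at 29°C (SD, n = 7 and n = 6). *Irgm2* (mean of all mice 15.4) and *Igtp* (11.98) followed, then *Gbp3* (8.54), *Gbp7* (8.01), *Iigp1* (5.66), *Irgm1* (4.37), *Gbp6* (2.80), *Gbp4* (2.33) and *Gbp5* (1.64). *Gbp2* exceeded *Irgm2*, *Irgm2* exceeded *Igtp*, *Gbp7* exceeded *Iigp1* and *Gbp4* exceeded *Gbp5* in 13 of 13 mice. The order was less even between mice for the neighbours *Gbp3* and *Gbp7* (10 of 13 mice in that order) and *Gbp6* and *Gbp4* (8 of 13). Differences in level between members were not tested. Close in order as well, *Igtp* exceeded *Gbp3* in 12, *Iigp1* exceeded *Irgm1* in 11 and *Irgm1* exceeded *Gbp6* in 12 mice.

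**Figure D3:**
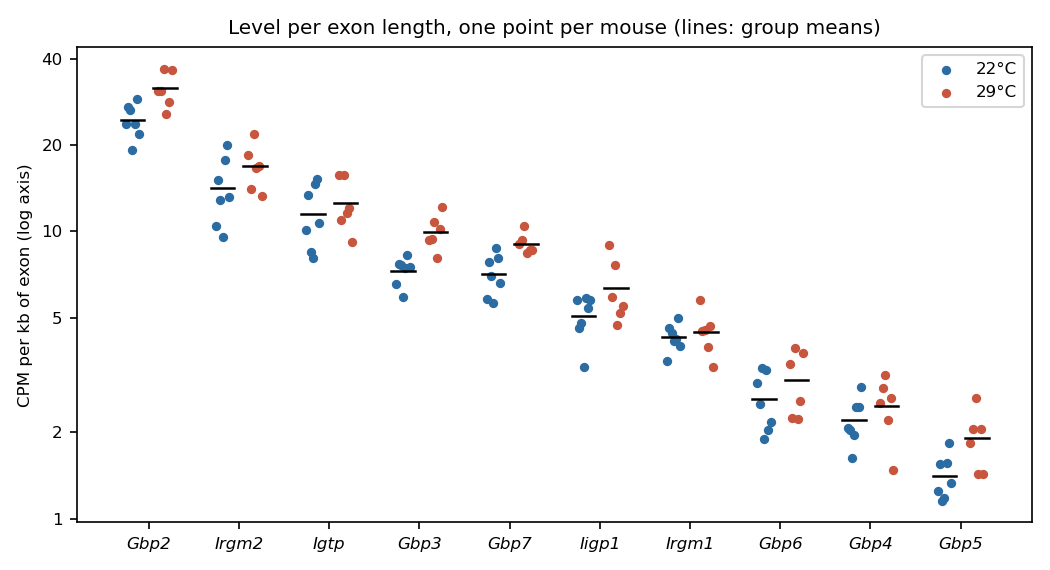
CPM per kb of exon on a log axis for the 10 members, 1 point per mouse at 22°C (blue) and 29°C (red), with lines at the group means. *Gbp2* is highest and *Gbp5* lowest, with mean levels over all mice of 27.7 and 1.64 CPM per kb.

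Mice of the same temperature also differed from each other. Replicate 4 at 22°C had all 10 members below the mean of its group, with a median deviation of -0.33 on the log2 CPM scale, and replicate 3 at 29°C had all 10 above, with a median of 0.33. Replicate 6 at 22°C was above its group mean in 9 members (median deviation 0.22) and replicate 4 at 29°C below in 9 (median -0.22). The summed level of the members was lowest in replicate 4 at 22°C, 228 CPM, and highest in replicate 3 at 29°C, 435 CPM. Replicate 6 at 29°C was mixed, with *Gbp2*, *Gbp3* and *Gbp6* above and the other 7 members below its group mean, *Gbp4* by -0.70.

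**Figure D4:**
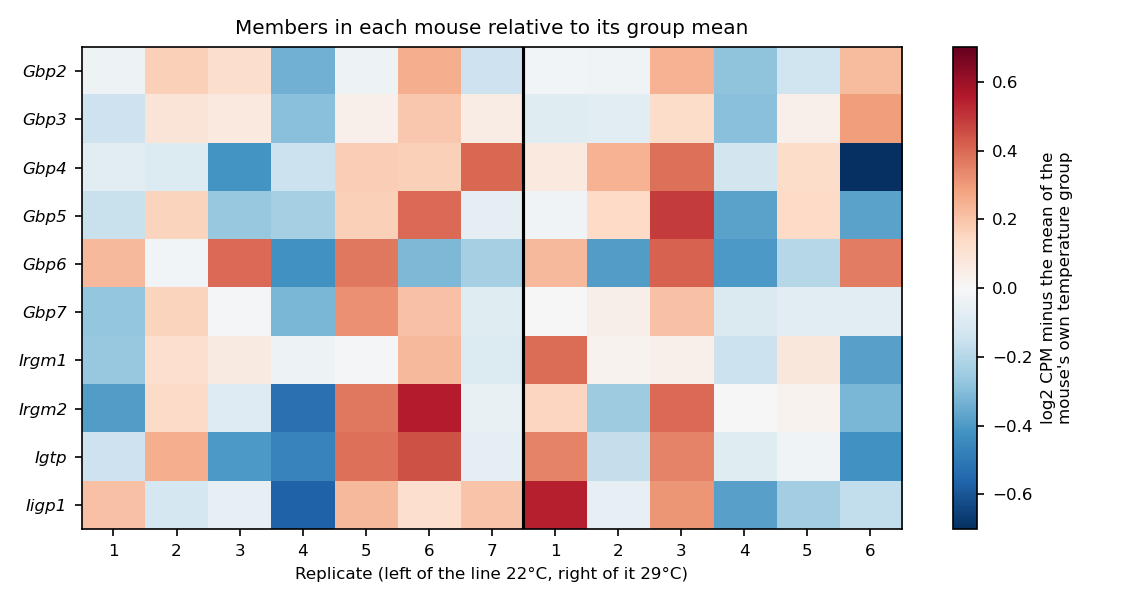
Log2 CPM of each member in each mouse minus the mean of that mouse's temperature group, with red above and blue below the mean. Replicate 4 at 22°C is blue throughout and replicate 3 at 29°C red throughout, with median deviations of -0.33 and 0.33.

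With the temperature means subtracted, the members tended to vary together over the 13 mice. Of their 45 pairs, 41 had a positive Pearson's r, with a median of 0.46 and a range from -0.27 to 0.90, and the median within each temperature was 0.56 at 22°C and 0.52 at 29°C. For 8 pairs both r and Spearman's rho passed an exact permutation test within temperatures, two-sided, with Benjamini-Hochberg adjustment over the 45 pairs at 0.05. *Irgm2* and *Igtp*, whose promoters are similar, had the highest r (0.90, exact permutation p = 0.00021, adjusted 0.0094; rho 0.95, p = 3.5e-05, adjusted 0.0016). These 2 genes also share exon sequence, since 11.8% of the 50-base words of *Igtp* occur in *Irgm2*. Whether the similar promoters or the shared sequence bear on this r was not tested. Next came *Gbp7* with *Irgm2* (r 0.87, exact permutation p = 0.00077, adjusted 0.012; rho 0.81, p = 0.0033, adjusted 0.029) and *Gbp2* with *Gbp3* (r 0.85, exact permutation p = 0.00063, adjusted 0.012; rho 0.83, p = 0.0012, adjusted 0.019).

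The other 5 pairs linked *Gbp5* with *Gbp4*, *Gbp7*, *Igtp* and *Irgm2*, and *Gbp7* with *Igtp*, with r from 0.72 to 0.78. The 8 values of r stayed between 0.64 and 0.85 when the 2 mice farthest from the median of the pair's first gene were left out, although no pair then passed the adjustment. Whether the calls were lost for want of those mice or because fewer mice were left was not tested. Leaving out 1 mouse changed the number of pairs passing most for replicate 4 at 22°C (1 pair), replicate 3 at 29°C (2), replicate 6 at 22°C (4) and replicate 6 at 29°C (12). *Gbp4* and *Gbp6* had the lowest r (-0.27). All values come from the same libraries and share their scaling. How often pairs of other genes had a positive r in these mice is not given here, so varying together cannot be called particular to the members.

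**Figure D5:**
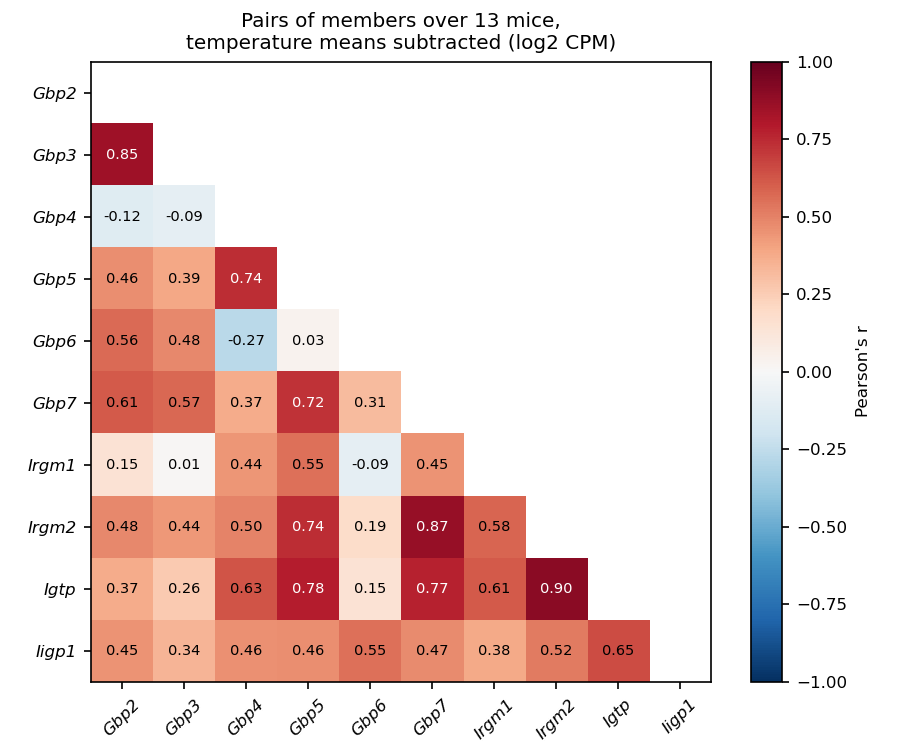
Pearson's r between the log2 CPM of each pair of members over 13 mice after the temperature means were subtracted. The highest r is 0.90, for *Irgm2* and *Igtp*, the lowest is -0.27, for *Gbp4* and *Gbp6*, and 41 of 45 pairs are above 0.

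Outside the 10 members, the 5 tested genes most like them were found by the mean Pearson's r to the members over the 13 mice, again with temperature means subtracted. They were *Gbp11* (mean r 0.67), *Atl1* (0.64), *Gm4951* (0.62), *Sav1* (0.59) and *Gm12250* (0.59). *Gbp11*, which RefSeq lists as a transcribed pseudogene, *Gm4951* and *Gm12250* belong to the GBP and IRG families. *Atl1* encodes atlastin-1, a GTPase that shapes the endoplasmic reticulum, and *Sav1* a scaffold of the Hippo pathway. Neither *Atl1* (log2 fold change -0.11, P-adj 0.537, edgeR) nor *Sav1* (-0.11, P-adj 0.543) passed the test between temperatures.

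The remaining GBP and IRG relatives gave no call by edgeR. Of 19 in the count table, 18 were tested, and 14 were lower and 4 higher at 22°C (median log2 fold change -0.17). An unadjusted p below 0.05 was reached by 4, 3 with lower values (*Gbp8*, *Gm4951* and *Gvin1*) and 1, *F830016B08Rik*, with higher ones. Over all tested genes, 18.5% reached such a p in either direction and 8.2% with lower values. DESeq2 called 1 of these relatives, *Gvin1*. *Gvin1*, a very large interferon-inducible GTPase, had 2.53 to 6.25 CPM at 22°C (median 4.22) and 4.81 to 7.22 CPM at 29°C (median 5.98). Of the 7 cool mice 6 lay below all warm mice, and its log2 fold change was -0.59 ± 0.18 (SE), with P-adj 0.141 by edgeR. It passed without replicate 3 at 22°C (P-adj 0.0790) and by DESeq2 (0.0347). *Gm4951*, an IRG, had 2.60 to 8.44 CPM at 22°C and 5.94 to 10.3 CPM at 29°C, and its log2 fold change was -0.58 ± 0.25 (SE), with P-adj 0.233.

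The well expressed relatives *Gbp9* and *Irgq* differed little. *Gbp9*, a GBP, had 23.8 ± 3.26 CPM at 22°C and 25.5 ± 3.96 CPM at 29°C (SD, n = 7 and n = 6), and *Irgq*, an IRG-like gene, had 39.75 ± 2.98 and 40.01 ± 2.78 CPM. *Ifi47*, *Tgtp2*, *Gm12250*, *Gm5431* and *Gbp8* had log2 fold changes between -0.39 and -0.26, and *Gbp10*, *Gbp11*, *Tgtp1*, *9930111J21Rik1* and *9930111J21Rik2* between -0.23 and -0.12. The 4 genes with higher means at 22°C were *Gm12185* (0.24), *Gbp2b* (0.41), *Gm4841* (0.57) and *F830016B08Rik* (1.35, SE 0.56, P-adj 0.223, edgeR). The last of these, an IRG, had 23.9, 12.5 and 12.9 CPM in replicates 1, 4 and 7 at 22°C, the 3 libraries with the highest muscle scores, and at most 5.71 CPM in the other mice. With the muscle score as a covariate its log2 fold change was 0.07 (P-adj 0.971, edgeR).

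The genes of interferon-γ signalling reported here gave no call either. *Ifng* itself was too low to test, with 0 to 5 counts per library and 0 in 5 of the 13 libraries, where a count of 0 allows up to between 0.113 and 0.136 CPM, for counting error only. Of 9 tested signalling genes, 6 were lower and 3 higher at 22°C (median log2 fold change -0.09). None passed by edgeR or DESeq2, and 0 had an unadjusted p below 0.05 by edgeR. The receptor chains *Ifngr1* (-0.12, SE 0.17) and *Ifngr2* (0.10, SE 0.12), the kinases *Jak1* (-0.09, SE 0.073) and *Jak2* (0.0089, SE 0.085), the transcription factor *Irf1* (-0.09, SE 0.073) and the feedback inhibitor *Socs1* (-0.25, SE 0.33) had differences smaller than 2 standard errors.

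Of 19 tested interferon-γ targets other than the GTPases, 17 were lower at 22°C (median log2 fold change -0.11). None passed by edgeR, 2 had an unadjusted p below 0.05 (*Irf8* and *Cxcl11*), against 18.5% of all tested genes, and DESeq2 called 1, *Irf8*. The chemokine *Cxcl11*, named after its value was seen, had a log2 fold change of -0.50 ± 0.21 (SE), with P-adj 0.229 by edgeR. *Irf8*, a transcription factor of myeloid cells, had 9.41 to 12.9 CPM at 22°C (median 11.0) and 12.4 to 18.1 CPM at 29°C (median 14.5). Of the 7 cool mice, 5 lay below all warm mice, and its log2 fold change was -0.38 ± 0.11 (SE), with P-adj 0.116 by edgeR and 0.0254 by DESeq2. *Cxcl9* (-0.07, SE 0.17) and *Cxcl10* (-0.09, SE 0.22), chemokines that draw T cells, and *Ciita* (-0.18, SE 0.16), the master regulator of MHC class II, had small differences with overlapping groups.

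Genes more typical of type I interferon were examined as a contrast. Of 20 tested, 20 were lower at 22°C (median log2 fold change -0.40), and 3 passed by edgeR, *Ifi44*, *Ifit3* and *Xaf1*, against 8 by DESeq2. Lower values of interferon-stimulated genes in these libraries were known when the list was written, so it is no independent evidence of direction. *Ifit3*, a member of the antiviral IFIT family, had 9.22 to 28.3 CPM at 22°C (median 19.0) and 30.4 to 43.7 CPM at 29°C (median 37.2), with no overlap between the groups. Its log2 fold change was -0.93 ± 0.20 (SE), with P-adj 0.0703 by edgeR. *Ifi44*, an interferon-induced gene, had 1.13 to 2.67 CPM at 22°C and 3.20 to 4.41 CPM at 29°C, also without overlap (-0.94, SE 0.17, P-adj 0.0463). *Xaf1*, a proapoptotic interferon target, had 9.11 to 14.8 CPM and 14.6 to 16.4 CPM, with a log2 fold change of -0.40 ± 0.10 (SE) and P-adj 0.0972. Whether type I-biased genes differed more than the GTPases was not tested.

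Of these calls, those of *Ifit3* and *Xaf1* depended on single libraries. *Ifi44* passed in all 13 fits that left out 1 mouse (P-adj 0.0339 to 0.0982, edgeR), but it did not pass with no filter on low counts (0.107) or with the muscle score as a covariate (0.141), and neither did the other two. *Ifit3* passed in 6, losing its call without replicate 4 at 22°C (P-adj 0.114) or any 1 mouse at 29°C (0.105 to 0.147), and *Xaf1* passed in 1, without replicate 2 at 22°C (0.0707), and otherwise had P-adj between 0.1004 and 0.205. Among libraries with higher totals the log2 fold changes were -1.20 (*Ifi44*), -0.68 (*Ifit3*) and -0.38 (*Xaf1*), with P-adj 0.224, 0.240 and 0.231.

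Markers of cells that could carry the GTPases were counted beside them. Of 13 macrophage markers, 10 had lower means at 22°C, the median log2 fold change was -0.14, and none passed by edgeR. An unadjusted p below 0.05 was reached by 2, both lower at 22°C (*Cd14* and *Mertk*), against 8.2% of all tested genes with lower values. DESeq2 called 1 of the macrophage markers, *Mertk*, named after its value was seen. Their summed level spanned 705 to 1369 CPM in cool mice and 773 to 1478 CPM in warm mice, and 1 of them, *Fcgr1*, is also among the interferon-γ targets. Of 15 tested lymphocyte markers, 14 had higher means at 22°C (median 0.56), and 1 passed (*Cd3e*, log2 fold change 1.78, P-adj 0.0817, edgeR, named after its value was seen). DESeq2 called 0 of the lymphocyte markers and gave an adjusted p to only 8 of them. They summed to between 9.28 and 35.1 CPM at 22°C and between 6.14 and 25.3 CPM at 29°C. The 7 tested dendritic cell markers (median 0.04) and 10 endothelial markers (median -0.10) gave no call by edgeR or DESeq2, with 2 and 1 at an unadjusted p below 0.05. DESeq2 gave an adjusted p to 5 of the dendritic cell markers. None of these markers was at 0 in all libraries. With the macrophage score as a covariate *Gbp3* had a log2 fold change of -0.46 (P-adj 0.101), and with the lymphocyte score -0.41 (P-adj 0.129), both by edgeR. The part of these cells in the results was not tested beyond those fits.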

How the data were processed

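RNA of gluteal WAT from 7 mice at 22°C and 6 at 29°C was analysed, grouped by the housing temperature in the labels. The authors aligned reads with STAR 2.7.5a, assigned them to genes with featureCounts, and the raw counts were deposited. They also deposited regularized log2 values from DESeq2, used here only in an alternative. Per the submitters' processing notes the build was GRCm39, whereas the paper names mm10 for cultured cells; annotation, strand and multi-mapping settings are not given in the sources used here, so counts of overlapping genes and close paralogs are uncertain. Gene symbols were taken by identifier from GENCODE vM21 (34006 of 34419 matched). No column of other samples was left unused (0).

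Counts were tested with edgeR 4.0.16 in R 4.3.3 (TMM, filterByExpr, quasi-likelihood F test, Benjamini-Hochberg, no covariate), with a call at P-adj below 0.1. SE was taken as log2 fold change over the root of F. Levels in CPM were scaled by TMM, with a prior count of 2 for log2 CPM. List scores are mean log2 CPM. Transcripts were cut into 50-base words to find sequence shared between genes. Total counts were 22356637 to 25245785, and members had 157 to 2402 counts per library. Libraries differed beyond sampling noise in each of 78 pairs (chi-square per gene at least 11.3). Separate litters or days are not given, so p-values measure the spread between these mice.

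Alternatives were DESeq2 1.42.0, its size factors, no filter, a mean count of at least 10, robust fitting, a replicate block, single mice left out, library-total, muscle, macrophage and lymphocyte covariates, higher totals only, limma 3.58.1 on the log2 values and P-adj below 0.05. Leaving out the 2 libraries with the highest muscle score was added after the data were seen. The fit was tested on simulated data with 200 genes changed by known folds. Those folds were larger than the differences of the members, so this does not test the fit at their size. The genes named are the 10 members, tested relatives, *Ifng*, *Ifngr1*, *Ifngr2*, *Jak1*, *Jak2*, *Irf1*, *Socs1*, *Cxcl9*, *Cxcl10*, *Irf8*, *Ciita*, up to 3 passing type I-biased genes and the 5 genes most like the members; other lists give counts. 1 gene of the signalling list is not reported here. Members and lists were chosen with earlier results of these data known.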

Additional observations from a re-analysis of the deposited data

Results flagged for a closer look

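Among 88 combinations of a named gene and a temperature group, 1 held a mouse that stood apart from the rest of its group. *Gbp9* in replicate 3 at 22°C had 17.0 CPM, and the nearest other mouse of that group had 22.5 CPM. On the log2 CPM scale this gap was 0.638 of the group's whole range, above the critical value of Dixon's test for 7 samples. Chance alone marks about 1 in 20 groups.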

How the results depend on the processing

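The median log2 fold change of the 10 members stayed negative in every alternative, from -0.35 to -0.21 when single mice were left out. Single calls depended on the setting. The number of members called lower, 1 in the reported fit, was 4 with DESeq2, 2 with the replicate block and 0 with no filter on low counts, P-adj below 0.05, the library-total, muscle, macrophage or lymphocyte covariate, the libraries with higher totals, or without the 2 libraries highest in muscle score, and 0 to 3 without single mice. Calls over all genes, 345 as reported, were 1676 with DESeq2, 42 with no filter, 40 at P-adj below 0.05, 214 with the replicate block, 4 with the library-total covariate, 8 with higher totals only, 41, 111 and 107 with the muscle, macrophage and lymphocyte covariates, and 35 to 614 without single mice. Other family genes called numbered 1 with DESeq2 and 0 to 1 without single mice, and signalling or target genes 1 with DESeq2. Correlated pairs, 8 as reported, numbered 0 without the 2 mice farthest from the median and 0 to 12 over all settings that left out mice.

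The labels do not say that a replicate number marks a shared litter, batch or day. Deviations of same-numbered mice correlated with r of 0.51, 0.41, 0.35, 0.49, 0.05 and 0.39, and 6 of 12 mice correlated best with their own number. This is a hint of pairing in the data that 1 pair did not show. The reported fit and the permutation tests did not treat the numbers as pairs, so any unit shared by same-numbered mice is not accounted for there. With the replicate block *Gbp2* was called (log2 fold change -0.34, P-adj 0.066, edgeR) beside *Gbp3* (-0.46, P-adj 0.036), *Ifi44* (P-adj 0.102), *Ifit3* (0.123) and *Xaf1* (0.121) were not called, and *Jak2* (-0.032) and *Cxcl9* (0.040) changed sign.

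Signs also changed, with no call on either side, as follows. With the library-total covariate, and to these digits with higher totals only, *Gbp4* had 0.10, *Irgm1* 0.0029, *Igtp* 0.053, *Gbp9* 0.0018, *Gbp11* 0.47, *Tgtp1* 0.049, *Gm12250* 0.095, *Gm5431* 0.013, *9930111J21Rik1* 0.15, *Gm4841* -0.31, *Irgq* 0.10, *Jak1* 0.059 and *Socs1* 0.29. With the muscle covariate *Gbp2b* had -0.076, *Gm12185* -0.13, *Gm4841* -0.27, *Irgq* 0.0016, *Ifngr1* 0.037, *Ifngr2* -0.048, *Jak2* -0.077 and *Cxcl10* 0.031. *Irgq* and *Jak2* had 0.00037 and -0.018 with the macrophage and 0.044 and -0.019 with the lymphocyte covariate. Without the 2 muscle-rich libraries *Irgm1* had 0.0028, *Gm12185* -0.13, *Ifngr1* 0.024, *Ifngr2* -0.067, *Jak2* -0.093 and *Cxcl10* 0.058. Leaving out single mice gave ranges across 0 for *Irgm1* (-0.13 to 0.024), *Gbp11* (-0.60 to 0.17), *Tgtp1* (-0.23 to 0.067), *Gm12185* (-0.038 to 0.38), *Irgq* (-0.033 to 0.020), *Ifngr1* (-0.21 to 0.0023), *Jak2* (-0.033 to 0.047), *Socs1* (-0.37 to 0.056), *Cxcl9* (-0.18 to 0.0073) and *Cxcl10* (-0.25 to 0.014). The cause of these changes was not tested.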

Other observations

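*Gbp11*, a transcribed pseudogene in RefSeq chosen here after its values were seen, differed widely between mice of the same temperature. Its level was 25.4 and 22.8 CPM in replicates 6 and 5 at 22°C, 9.63, 8.70, 3.90 and 3.90 CPM in replicates 7, 2, 1 and 3, and 1.30 CPM in replicate 4. At 29°C it was 28.2, 18.04 and 15.3 CPM in replicates 3, 1 and 5, and 7.45, 3.79 and 3.27 CPM in replicates 2, 6 and 4. The mice with the highest *Gbp11* in each group were also those with the highest *Irgm2*, 74.1 CPM in replicate 6 at 22°C and 80.9 CPM in replicate 3 at 29°C, and the mouse with the lowest *Gbp11*, replicate 4 at 22°C, had the lowest *Irgm2*, 35.2 CPM. At 29°C the lowest values did not coincide, since replicate 4, lowest in *Gbp11*, had 61.5 CPM of *Irgm2*, and replicate 6 was lowest in *Irgm2* with 49.1 CPM. Of the 50-base words of *Gbp4*, 3.18% occur in *Gbp11*.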
